A study of Rattus norvegicus with 8 samples.

Results

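The comparison described here set selenium water (SeW) against deep-sea water with a hardness label of 1200 (DSW1200) in the intestinal epithelium of Wistar rats, 4 months old by their labels, that drank one or the other for 3 days. It rests on 4 of the 8 arrays of the series, 2 for SeW and 2 for DSW1200. The other 4 arrays, 2 from rats on tap water (TW) for 3 days and 2 from rats under water restriction (WR) for 12 h, entered the fit as part of the estimate of spread and served to show on which side of the comparison a gene had moved. All 4 groups shared the strain, the age and the tissue, and the labels name no transgene or drug in any of them. By the study's methods the rats were female, the cells were shaken loose from the proximal small intestine in a chelating buffer free of calcium and magnesium, SeW was sodium selenite in distilled water, and DSW1200 was deep-sea water processed to lower its sodium. The waters therefore differed in magnesium, calcium, sodium and potassium as well as in selenium, and these cannot be told apart here. By the study's values selenium was far higher in SeW, and DSW1200 held only a trace of it. The labels do not say whether each array came from 1 rat or from a pool, so the p-values below measure only the spread between these arrays. On the array, 20832 of 31099 probe sets carried a single gene symbol, which gave 14218 genes with a probe set to themselves, and the 9259 with a geometric mean signal above 6.69 were tested.

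The proximal small intestine is lined by enterocytes, which digest and absorb nutrients through a brush border of microvilli, detoxify what they take up, and are replaced every few days from crypts. Selenium acts in these cells through selenoproteins, which hold the amino acid selenocysteine and include glutathione peroxidases and thioredoxin reductases that remove peroxides and keep proteins reduced. Like most tissues, the epithelium also runs a circadian clock, a loop in which the activators Clock, Npas2 and Bmal1 switch on their own repressors, and in which the nuclear receptors Nr1d1 and Nr1d2 repress Bmal1 and Nfil3. Magnesium and calcium enter across the epithelium through channels and between cells through claudins.

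The 4 arrays differed in brightness and in signs of RNA quality along with the water. Before normalization the median array signal was 6.1 and 7.0 on the DSW1200 arrays and 11.1 and 10.6 on the SeW arrays, and quantile normalization gave all 8 arrays the same distribution. The ratio of the 3' to the 5' beta-actin probe sets, which rises as RNA breaks down or is copied short, was 32.8 and 27.1 on the DSW1200 arrays against 13.6 and 10.9 on the SeW arrays, and 20.6 to 24.8 on the TW and WR arrays. The 2 SeW arrays were the lowest of the 8 and the 2 DSW1200 arrays the highest. With this ratio as a covariate, an alternative chosen after the data were seen, no gene passed the test and 436 had an unadjusted p under 0.05, while the median SE grew from 0.26 to 0.93 and 236 of the 252 genes called below kept their direction. This ratio and the water cannot be told apart with these arrays.

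SeW and DSW1200 differed at 252 of the 9259 genes tested (2.72%), of which 116 were higher in SeW (1.25%) and 136 lower (1.47%), by limma's moderated test at an adjusted p under 0.05. At an unadjusted p under 0.05 there were 846 higher and 1003 lower. The sizes were uneven. Of the genes higher in SeW, 18 were more than 2 log2 units higher and 58 between 1 and 2, and of those lower, 3 were more than 2 and 70 between 1 and 2. In all 252 the 2 SeW arrays lay wholly above or below the 2 DSW1200 arrays, as they did in 53.9% of all genes tested. The median difference over all genes was -0.04 on the log2 scale, and 46.9% of all genes had a higher mean in SeW. On the values as deposited, without normalization, that median was 0.84 and the calls were 3732 higher and 7 lower, and on arrays centred on their medians it was 0.11 with 57 higher and 20 lower, so the split into higher and lower genes follows the scaling and every direction below is relative to the middle of each array.

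**Figure D1:**
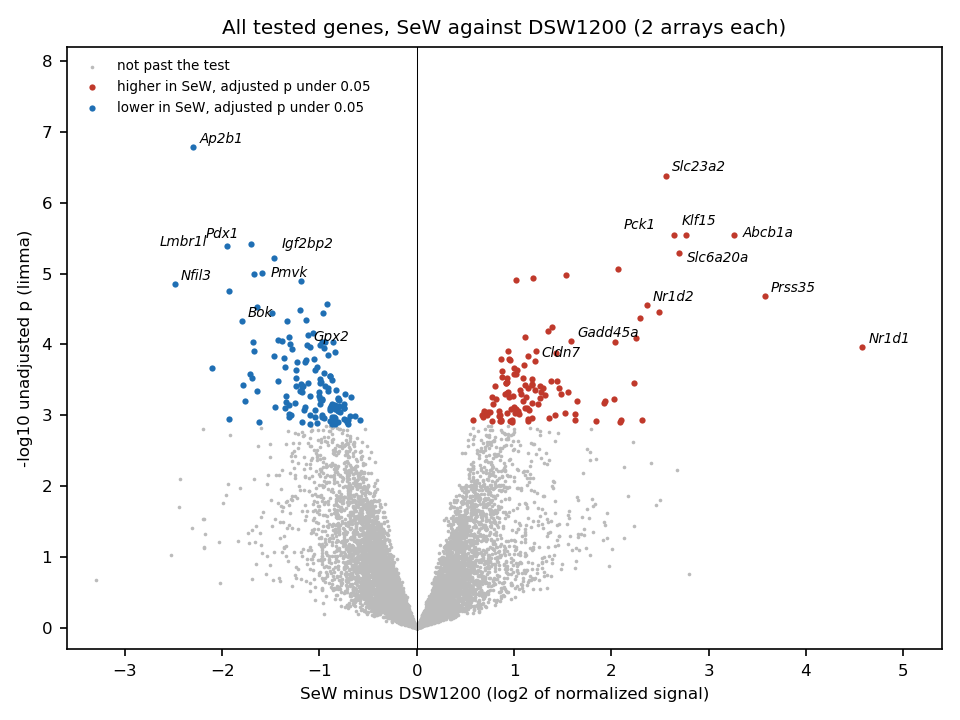
Each point is a gene, with the SeW minus DSW1200 difference of log2 normalized signal on the x axis and the -log10 unadjusted p of limma's test on the y axis. Red points are the 116 genes higher and blue points the 136 genes lower in SeW at an adjusted p under 0.05, and grey points are the other genes tested; Nr1d1 lies farthest to the right and Ap2b1 has the smallest p.

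The calls rest on few arrays. With 2 arrays against 2, an exact permutation test of a single gene cannot give a p below 0.333, and the test gains its reach from the spread shared across genes and groups. Leaving out SeW replicate 2 left 3 calls, Slc23a2 (higher) and Ap2b1 and Pdx1 (lower), and every other call named below was lost in that fit, in which the lone SeW array was assumed to vary like the other groups. Leaving out SeW replicate 1 left 26, DSW1200 replicate 1 left 69 and DSW1200 replicate 2 left 54. Without WR replicate 1 there were 69 calls and without WR replicate 2 there were 42, whereas without TW replicate 1 or 2 there were 436 or 434. The count was 19 with no limit on signal, 141 when the probe sets of a gene were averaged and 1, Ap2b1, without a trend of the spread with signal. By a 2-fold change with no test, 304 genes were higher and 270 lower (6.2% of those tested), and 149 of these 574 were among the 252.

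The genes called were set apart mainly by the SeW arrays. In 108 of the 116 genes higher in SeW (93.1%) both SeW arrays lay above all 6 other arrays, against 22.5% of all genes with a higher mean in SeW. In 130 of the 136 lower genes (95.6%) both lay below all 6 others, against 24.6% of all genes with a lower mean. The 2 DSW1200 arrays lay beyond the 6 others in 38 of the 116 (32.8%) and 47 of the 136 (34.6%), against 9.65% and 8.03% of all genes. The TW mean lay on the DSW1200 side of the midpoint in 97 of the 116 (83.6%) and 121 of the 136 (89.0%), against 54.1% and 61.7% of all genes with a higher or lower mean, and the WR mean in 96 (82.8%) and 121 (89.0%), against 57.1% and 64.0%. The choice of genes for a SeW to DSW1200 difference in part fixes such positions, so they are given as a description. On the values as deposited, the TW mean was on the DSW1200 side in 41.9% and the WR mean in 64.7% of the lower genes, against 85.3% and 59.0% of all genes with a lower mean.

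**Figure D2:**
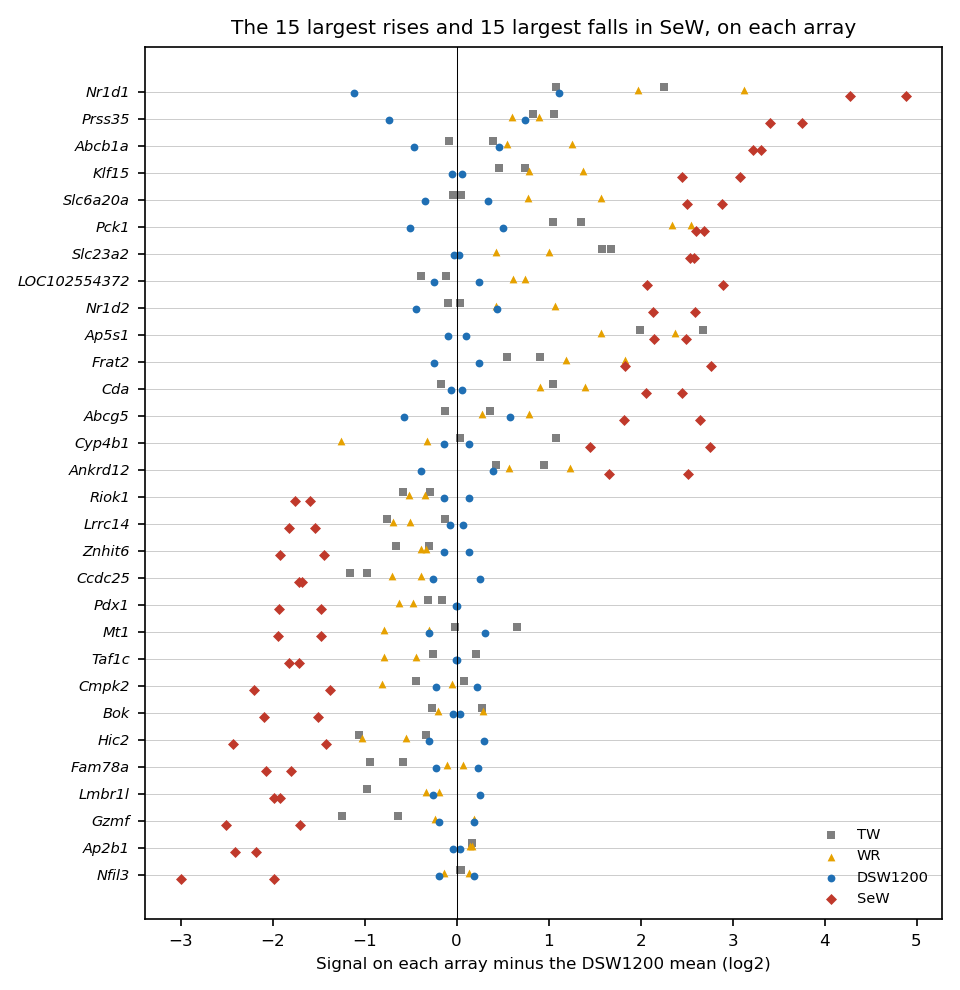
For the 15 genes with the largest rise and the 15 with the largest fall among those called, each symbol is 1 array, placed by its log2 signal minus the mean of the 2 DSW1200 arrays. Red diamonds (SeW) lie apart from blue circles (DSW1200) in every row, while grey squares (TW) and orange triangles (WR) have their mean nearer DSW1200 except for Ap5s1 (TW and WR), Slc23a2 and Ccdc25 (TW), and Cda, Frat2, Pck1 and Nr1d1 (WR).

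Of the selenium-dependent genes, 1 of 18 selenoproteins tested passed the test (5.56% beside 2.72% of all genes), and it was lower in SeW. Gpx2, the glutathione peroxidase of the gastrointestinal epithelium, had a signal of 2102 and 1768 on the DSW1200 arrays and 896 and 872 on the SeW arrays (log2 difference -1.12 ± 0.18 (SE), adjusted p = 0.0198). The TW arrays at 1755 and 2520 and the WR arrays at 1737 and 1620 were all above SeW. Its call was held without either TW array or WR replicate 1 and was lost without each of the other 5 arrays in turn. Gpx4, which repairs oxidized membrane lipids, gave 1289 and 1609 in DSW1200 and 971 and 987 in SeW (log2 difference -0.56 ± 0.18 (SE), adjusted p = 0.125). Gpx1, the cytosolic peroxidase, gave 372 and 311 against 254 and 275 (adjusted p = 0.356). In neither did the groups overlap, as they did not in 53.9% of all genes tested, and neither passed the test.

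None of the other selenoproteins passed limma's test. Txnrd1, the cytosolic thioredoxin reductase, had a signal of 514 and 606 in DSW1200 and 483 and 587 in SeW, ranges that overlap (log2 difference -0.07 ± 0.19 (SE), adjusted p = 0.887). Selenop, which carries selenium in plasma, gave 3955 and 3680 against 4163 and 4005 (log2 difference 0.10 ± 0.25 (SE), adjusted p = 0.871), with a sign that turned on arrays centred on their medians and on the mean of its probe sets. Selenoh and Selenos had the largest differences upward among the selenoproteins, at 0.59 ± 0.21 (adjusted p = 0.154) and 0.42 ± 0.17 (adjusted p = 0.204). Over the 18 members 6 had a higher and 12 a lower mean in SeW, and their median was -0.10 beside -0.04 over all genes. None of the 11 tested genes for selenocysteine incorporation and selenium handling passed the test, although 2 higher and 1 lower had an unadjusted p under 0.05 by limma.

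Among 28 genes of glutathione and peroxide defence, Mt1 was lower and Txnip higher in SeW (7.14% beside 2.72% of all genes). Of the members, 13 had a higher and 15 a lower mean (median -0.05). Mt1, a metallothionein that binds zinc and copper, fell from 149 and 97.5 in DSW1200 to 31.3 and 43.4 in SeW (log2 difference -1.71 ± 0.31 (SE), adjusted p = 0.0296), and the WR arrays at 97.7 and 69.9 were above both SeW arrays. Txnip, which binds and inhibits thioredoxin, rose from 261 and 302 to 469.9 and 789 (log2 difference 1.12 ± 0.22 (SE), adjusted p = 0.0361), but here TW at 488 and 472 and WR at 641 and 645 were also above DSW1200. The SeW arrays thus lay apart for Mt1, and the DSW1200 arrays for Txnip.

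Glrx3, a cytosolic glutaredoxin that handles iron-sulphur clusters, gave 487 and 497 in DSW1200 and 263 and 185 in SeW (log2 difference -1.16 ± 0.27 (SE), adjusted p = 0.0573). Srxn1, which repairs overoxidized peroxiredoxins, gave 291 and 289.8 against 164 and 160.5 (adjusted p = 0.0984). Prdx6, a peroxiredoxin with phospholipase activity, had higher means in SeW, at 0.56 ± 0.17 (adjusted p = 0.112). Sod1, the cytosolic superoxide dismutase, at -0.14 ± 0.19 (adjusted p = 0.735), and Gsr, the glutathione reductase, at 0.58 ± 0.38 (adjusted p = 0.439), overlapped between the waters. Of 43 tested genes that the study listed for DSW1200 or SeW on an oxidative stress PCR array, 1 was higher (Txnip) and 1 lower (Gpx2), or 4.65% beside 2.72% of all genes. That list was chosen on samples of this study, so it is not independent evidence of a direction.

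The promoter of Mt1 is shown because metallothionein genes are switched on through repeats of a short metal response element, and Mt1 was among the 15 largest falls. The window runs from 250 bases before to 50 bases after the annotated start in RefSeq (GRCr8), read 5' to 3' along the gene, with every match to TGCNCNC on either strand in capitals. This search string allows any base at each N, so a match can be looser than the element itself.
Mt1, chr19:10832926-10833225 (minus strand): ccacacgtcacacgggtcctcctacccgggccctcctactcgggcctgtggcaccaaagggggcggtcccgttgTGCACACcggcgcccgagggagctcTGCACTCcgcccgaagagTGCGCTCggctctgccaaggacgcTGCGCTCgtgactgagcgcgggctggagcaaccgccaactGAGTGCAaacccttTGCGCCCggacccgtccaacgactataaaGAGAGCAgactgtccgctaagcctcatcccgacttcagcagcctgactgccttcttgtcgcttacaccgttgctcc
It holds 7 matches, with first bases at -176, -151, -133, -109, -69, -55 and -26 from the start. At least 1 match was present in 49.6% of the 33469 promoters in the table, and 7 or more in 0.108%. A match of letters is a description and not a site of binding.

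The calls among pro- and anti-apoptotic genes were few, and all were lower in SeW. Bok, a pro-apoptotic member of the Bcl-2 family that acts in the endoplasmic reticulum and mitochondria, fell from 276 and 261 in DSW1200 to 94.7 and 62.7 in SeW (log2 difference -1.80 ± 0.26 (SE), adjusted p = 0.0146), and TW at 223 and 325 and WR at 327 and 234 lay with DSW1200. A second, dimmer probe set of Bok gave 53.9 and 23.3 against 28.2 and 23.8, which overlap (adjusted p = 0.523 by limma among all probe sets), and the call was lost on the mean of probe sets. Bok was the member called among 27 pro-apoptotic genes tested (3.7% beside 2.72% of all genes), of which 12 had a higher and 15 a lower mean. Bag1, a co-chaperone that binds Bcl-2, fell from 205 and 259.7 to 106 and 110.0 (log2 difference -1.09 ± 0.25 (SE), adjusted p = 0.0486). Api5, an inhibitor of apoptosis, fell from 321 and 347 to 192 and 183 (log2 difference -0.83 ± 0.16 (SE), adjusted p = 0.0338), with a sign that turned on the values as deposited. A second, dimmer probe set of Api5 gave a log2 difference of -0.21 (adjusted p = 0.791 by limma among all probe sets). The calls of Bag1 and Api5 were both lost on the values as deposited, on arrays centred on their medians and on the mean of probe sets. These 2 were the members called among 17 anti-apoptotic genes (11.8% beside 2.72% of all genes), of which 9 had a higher and 8 a lower mean.

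Gadd45a, a stress gene induced by DNA damage and growth arrest, rose from 115 and 77.7 in DSW1200 to 262 and 308 in SeW (log2 difference 1.59 ± 0.25 (SE), adjusted p = 0.0191), with TW at 109 and 162 and WR at 134 and 151 below both SeW arrays. It was 1 of 24 genes of the p53 and DNA damage list to pass the test (4.17% beside 2.72% of all genes). Mcl1, an anti-apoptotic Bcl-2 relative, gave 2192 and 1555 against 1677 and 1620 (log2 difference -0.16 ± 0.35 (SE), adjusted p = 0.837) and Bad, a pro-apoptotic one, 31.3 and 23.3 against 23.1 and 30.8 (log2 difference -0.02 ± 0.32 (SE), adjusted p = 0.985), so that the waters overlapped in both. Bcl2 was too dim to be tested, and Bax had no probe set to itself. Of 10 tested genes that the study listed for DSW1200 or SeW on an apoptosis PCR array, Gadd45a was higher and Bag1 and Api5 lower. These 3 calls among 10 stand beside 2.72% called over all genes, and that list too was chosen on samples of this study. By the study's PCR values against TW, Bag1 and Api5 were higher in SeW and lower in DSW1200, the reverse of the order here. Gadd45a was higher in both waters by those values, and more so in SeW.

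**Figure D3:**
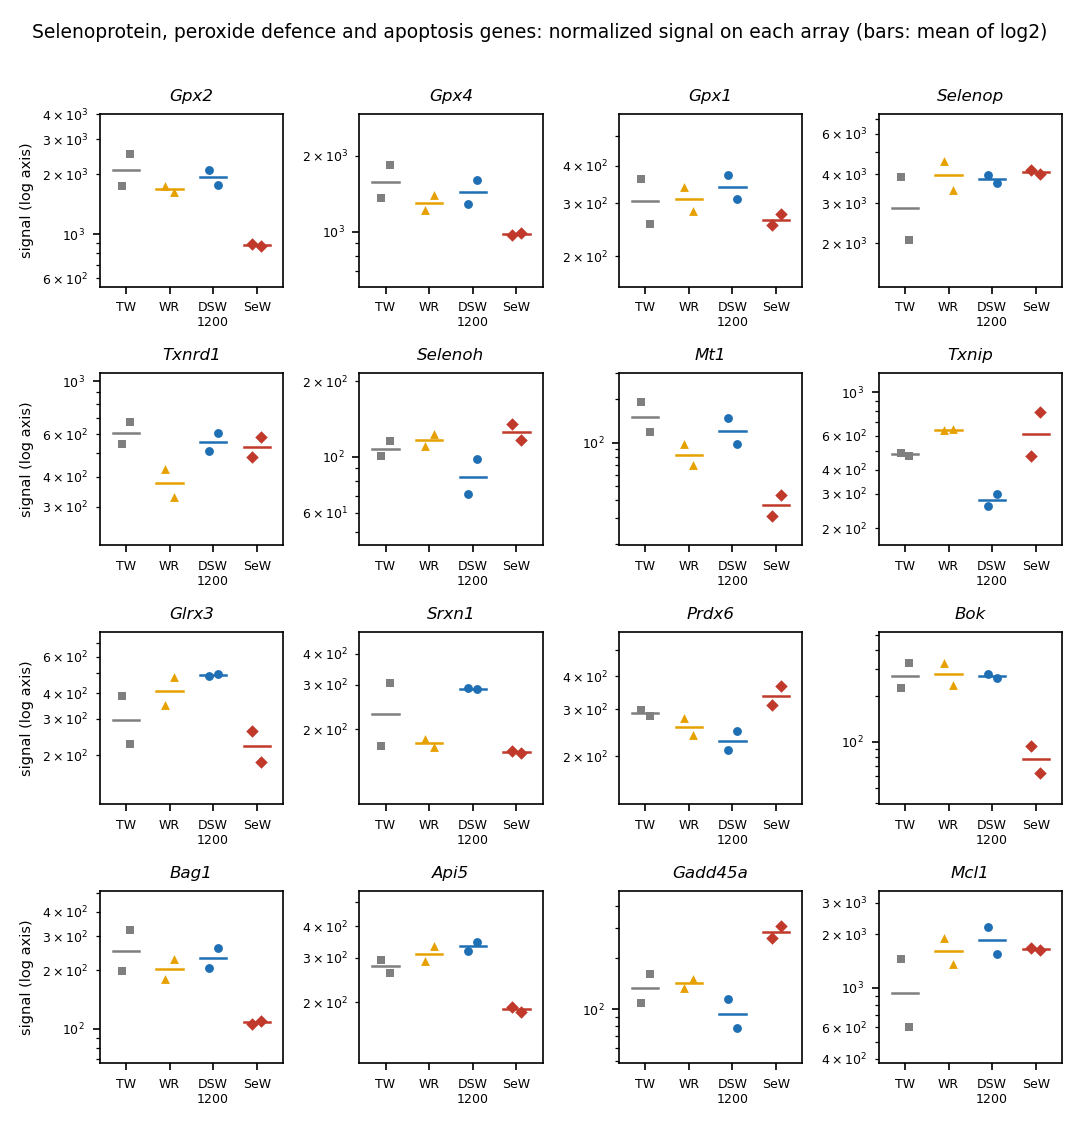
Normalized signal (log axis, scaled for each gene) on each of the 8 arrays, by group, for selenoproteins, genes of peroxide defence and genes of apoptosis, with a bar at the mean of the log2 values of the 2 arrays. Gpx2, Mt1, Bok, Bag1 and Api5 have both SeW arrays below all others and Gadd45a above all others, Txnip has both DSW1200 arrays below all others, and Txnrd1 and Mcl1 overlap.

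Of 13 circadian clock and output genes tested, 2 were higher and 4 lower in SeW (46.2% beside 2.72% of all genes). The list was chosen with earlier results of these data known, so this share is not independent evidence of a difference in the clock. Nr1d1, the repressor also called Rev-erb alpha, had the largest rise of all genes called, from 1.26 and 5.9 in DSW1200 to 52.96 and 80.5 in SeW (log2 difference 4.58 ± 0.74 (SE), adjusted p = 0.02). Both DSW1200 signals lie below 6.69, the limit on mean signal used for the test, so the size of this rise is poorly known. Its relative Nr1d2 rose from 30.3 and 55.8 to 180.2 and 248 (log2 difference 2.36 ± 0.32 (SE), adjusted p = 0.0124), and a second probe set of Nr1d2 gave 16.2 and 21.4 against 84.3 and 118.5 (adjusted p = 0.011 by limma among all probe sets). TW at 38.5 and 42.1 and WR at 55.4 and 86.4 lay below both SeW arrays on the first of these probe sets.

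The genes that these receptors repress, and the activators of the loop, were lower in SeW. Nfil3, a repressor of the D-box genes, had the largest fall of all genes called, from 77.0 and 100.1 to 22.2 and 10.99 (log2 difference -2.49 ± 0.31 (SE), adjusted p = 0.00769), and the other 4 arrays were between 79.9 and 96.3. Bmal1, the common partner of both activators, fell from 55.6 and 47.4 to 26.3 and 13.2 (log2 difference -1.46 ± 0.30 (SE), adjusted p = 0.0411). Clock fell from 257 and 191 to 117 and 91.3 (log2 difference -1.10 ± 0.22 (SE), adjusted p = 0.036). Npas2, which can replace Clock, fell from 598 and 693 to 423 and 307 (log2 difference -0.84 ± 0.19 (SE), adjusted p = 0.0493), with a sign that turned on the values as deposited.

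Further clock genes did not pass the test, and those given here were, like Bmal1 and Npas2, chosen after their values were seen. Tef, a D-box activator, gave 21.6 and 11.9 in DSW1200 and 32.1 and 55.6 in SeW (adjusted p = 0.112). Per1 gave 39.1 and 29.0 against 48.5 and 67.3 (adjusted p = 0.212), and Cry1 gave 225 and 211 against 83.7 and 147 (adjusted p = 0.12); both are repressors of the loop and neither passed the test. Per2, a further repressor, overlapped at 137 and 55.4 against 128 and 182.

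On the clock list 5 genes fell below the limit on signal and were left out of the main test. Of these, Dbp and Per3 were brightest on the SeW arrays. Hlf gave 12.96 and 1.075 in DSW1200 and 7.819 and 11.46 in SeW, which overlap. Bhlhe41 at 1.0 and 3.0 against 1.0 and 1.0, and Rora at 1.1 and 1.0 against 1.0 and 4.562, overlapped near the floor. Dbp, the D-box activator closest to the loop, gave 12.7 and 3.09 in DSW1200, 56.0 and 178.3 in SeW and at most 4.52 on the other 4 arrays. Per3 was at the floor of 1 on both DSW1200 arrays, at most 1.54 on the TW and WR arrays, and 20.8 and 51.7 on the SeW arrays. In the fit with no limit on signal the adjusted p was 0.171 for Dbp and 0.0479 for Per3 by limma, with both Per3 values in DSW1200 and in TW at the floor. That fit called 19 genes in all, and the calls of Nr1d1, Nr1d2, Nfil3, Bmal1, Clock and Npas2 were all lost in it. The hour at which the rats were killed is not given in the sources used here, and its part in these differences was not tested.

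**Figure D4:**
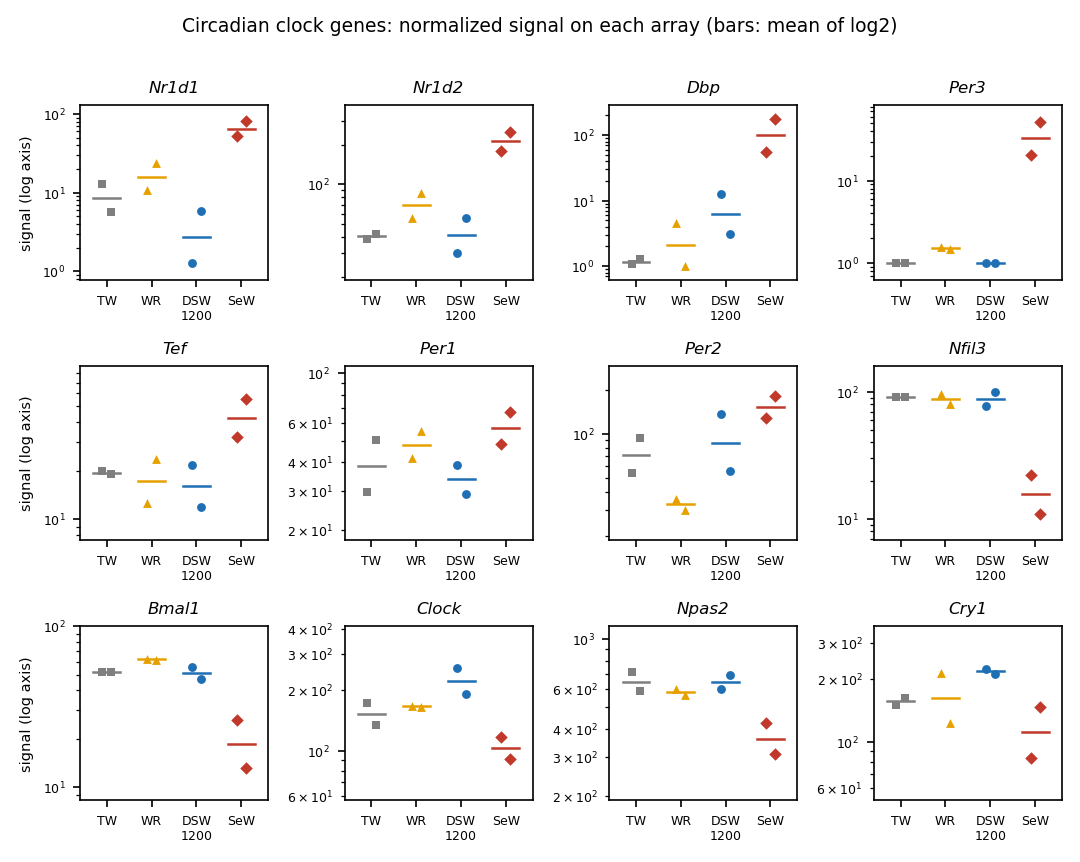
Normalized signal (log axis, scaled for each gene) of 12 clock genes on each of the 8 arrays, with a bar at the mean of the log2 values of the 2 arrays. Both SeW arrays lie above all 6 others for Nr1d1, Nr1d2, Dbp, Per3 and Tef and below all 6 others for Nfil3, Bmal1, Clock and Npas2. Dbp and Per3 were below the limit on signal, as were Hlf, Bhlhe41 and Rora, which are not shown.

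The promoters of Bmal1 and Nr1d2 are shown because Nr1d1 and Nr1d2 act on genes through sites that include the letters AGGTCA, and both promoters hold these letters. Each window is the 300 bases from 250 before to 50 after the RefSeq start (GRCr8), with matches to AGGTCA or to the E-box CACGTG, which the activators bind, in capitals on either strand; these motifs share no letters in either window.
Bmal1, chr1:176766078-176766377 (plus strand): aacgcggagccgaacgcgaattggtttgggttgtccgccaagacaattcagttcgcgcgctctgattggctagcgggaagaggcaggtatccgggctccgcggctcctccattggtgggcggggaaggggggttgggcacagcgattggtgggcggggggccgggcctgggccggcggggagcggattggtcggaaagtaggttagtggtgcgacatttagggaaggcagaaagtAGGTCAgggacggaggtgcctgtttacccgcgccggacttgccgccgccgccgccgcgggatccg
Nr1d2, chr15:9954784-9955083 (plus strand): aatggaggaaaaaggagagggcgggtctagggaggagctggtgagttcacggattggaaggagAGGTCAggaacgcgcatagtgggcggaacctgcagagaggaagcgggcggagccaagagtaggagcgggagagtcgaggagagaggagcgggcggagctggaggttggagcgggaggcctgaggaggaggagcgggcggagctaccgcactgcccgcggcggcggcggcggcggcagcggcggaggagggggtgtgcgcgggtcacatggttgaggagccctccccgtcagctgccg
Bmal1 holds 1 AGGTCA at -15 and Nr1d2 holds 1 at -187, and neither holds CACGTG. Of 11 clock genes searched, those 2 were the ones with AGGTCA, and Tef was the one with CACGTG, at -198. Over all promoters of this length 16.2% held AGGTCA and 6.42% held CACGTG. As for Mt1, a match of letters is a description and not a site of binding.

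Transport and detoxification genes of the enterocyte mostly had higher means in SeW, and few passed the test. Of 29 xenobiotic genes tested, 27 had a higher mean, where 46.9% of all genes did, and 4 passed the test, all higher (13.8% beside 2.72% of all genes, with a median of 0.37 beside -0.04). Relative to the median of all genes, this list stayed above under all alternatives of scaling, filter and left-out array, between 0.29 and 0.50. Abcb1a, the P-glycoprotein that pumps drugs back into the lumen, rose from 34.8 and 18.3 in DSW1200 to 235 and 250.4 in SeW (log2 difference 3.27 ± 0.34 (SE), adjusted p = 0.00535), and the other 4 arrays were between 23.8 and 60.0. A second probe set of Abcb1a gave 31.3 and 11.6 against 92.3 and 254.8. Cyp4b1, a cytochrome P450, rose from 116 and 96.1 to 288 and 711 (log2 difference 2.10 ± 0.46 (SE), adjusted p = 0.0466), with a wide gap between the 2 SeW arrays. Sult1c2, a sulphotransferase, and Gstm2, a glutathione transferase, rose by 1.56 ± 0.30 (adjusted p = 0.0343) and 0.92 ± 0.20 (adjusted p = 0.044).

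Of 22 sugar, peptide, amino acid and vitamin transporters, 19 had a higher mean in SeW, beside 46.9% of all genes, and 3 passed the test, all higher (13.6% beside 2.72%, median 0.37). Slc23a2, a sodium-dependent vitamin C transporter, rose, with signals of 36.3 and 34.8 in DSW1200 and 206 and 213 in SeW (log2 difference 2.56 ± 0.22 (SE), adjusted p = 0.00191), a call held in all 8 fits that left out 1 array and lost on the mean of probe sets and without the trend of the spread. The TW arrays at 114 and 107 and the WR arrays at 48.0 and 71.3 lay between. Slc6a20a, which takes up proline and other imino acids, rose from 73.0 and 45.4 to 327 and 424 (log2 difference 2.69 ± 0.30 (SE), adjusted p = 0.006). Slc3a2, the heavy chain shared by several amino acid exchangers, rose from 426 and 432 to 751 and 1107 (log2 difference 1.09 ± 0.22 (SE), adjusted p = 0.0377). Slc5a1, the sodium-glucose transporter, gave 131 and 126 against 213 and 260.2 without passing the test (adjusted p = 0.105).

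Water, bile sterol and nutrient genes held single rises. Aqp3, a water and glycerol channel, rose from 196 and 124 to 500.2 and 328 (log2 difference 1.38 ± 0.26 (SE), adjusted p = 0.0318), and all 5 aquaporins tested had a higher mean in SeW. Abcg5, which with Abcg8 returns plant sterols and cholesterol to the lumen, rose from 31.0 and 13.9 to 73.3 and 130.1 (log2 difference 2.23 ± 0.42 (SE), adjusted p = 0.0318), while Abcg8 gave 11.1 and 13.6 against 32.6 and 55.1 (adjusted p = 0.0536). Abcg5 was the gene called among 21 for fat absorption (4.76% beside 2.72% of all genes), of which 12 had a higher mean. Pck1, the rate-setting enzyme of gluconeogenesis, rose from 134 and 269.7 to 1155 and 1222 (log2 difference 2.64 ± 0.28 (SE), adjusted p = 0.00535), but the WR arrays at 1109 and 966 were near SeW and it was DSW1200 that lay lowest of the 4 groups. Klf15, a transcription factor of amino acid and glucose use, rose from 19.4 and 17.99 to 102 and 158 (log2 difference 2.77 ± 0.29 (SE), adjusted p = 0.00535). Cda, the cytidine deaminase, rose from 68.3 and 74.4 to 296 and 389 (adjusted p = 0.0191).

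Cholesterol synthesis genes mostly had lower means, 15 of 20 (median -0.37), but 1 passed the test (5.0% beside 2.72% of all genes). Pmvk, the phosphomevalonate kinase, fell from 159 and 185 to 57.2 and 56.7 (log2 difference -1.59 ± 0.19 (SE), adjusted p = 0.00736). Mvd, which acts next in that pathway, gave 55.5 and 113 against 25.6 and 41.2 (adjusted p = 0.0736). Cyp51, a demethylase of the sterol nucleus, gave 859 and 2057 on the DSW1200 arrays and 653 and 721 on the SeW arrays. Fdft1, the squalene synthase, gave 132 and 346 against 106 and 107. In both the 2 DSW1200 arrays lay farther apart than the lower of them lay from SeW. Relative to all genes its median ran from -1.06 to 0.34 over the 4 pairings of a SeW with a DSW1200 array.

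No gene of magnesium transport passed the test among 9 tested by limma, and 1 higher and 1 lower had an unadjusted p under 0.05. Magt1, a magnesium transporter of the oligosaccharyltransferase complex, gave 102 and 109 in DSW1200 and 163 and 176 in SeW (adjusted p = 0.112), and Slc41a2, a magnesium transporter of membranes, gave 564 and 353 against 280.4 and 268 (adjusted p = 0.158). Among 8 genes of calcium absorption, Cldn12, a claudin of calcium-permeable junctions, fell from 596 and 657 to 381 and 258 (log2 difference -0.996 ± 0.20 (SE), adjusted p = 0.0368). It was the 1 called of these (12.5% beside 2.72% of all genes), and 6 of the 8 had a lower mean (median -0.26). Trpv6, the apical calcium channel, gave 571 and 468 against 243 and 351 (adjusted p = 0.0995), and Vdr, the vitamin D receptor, 13.1 and 9.27 against 25.7 and 31.1 (adjusted p = 0.0827). Cldn7, a claudin of the lateral membrane, rose from 459 and 451 to 1163 and 958 (log2 difference 1.21 ± 0.21 (SE), adjusted p = 0.0235). Its TW arrays at 815 and 931 lay nearer SeW, and its WR arrays at 352 and 541 lay around DSW1200. Cldn7 and Cldn12 were the 2 genes called among 21 of tight and adherens junctions (9.52% beside 2.72% of all genes). No gene of the 25 for sodium, chloride and bicarbonate transport passed the test, although 20 had a higher mean (median 0.34).

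Of the metal transporters, 1 rose and 1 fell. Slc39a14, which imports zinc, iron and manganese, rose from 518 and 280.5 to 1014 and 1121 (log2 difference 1.48 ± 0.29 (SE), adjusted p = 0.0348). A second, dimmer probe set gave 96.5 and 48.3 against 84.1 and 78.6, which overlap (adjusted p = 0.687 by limma among all probe sets), and the call was lost on the mean of probe sets. Slc30a2, which moves zinc into vesicles, fell from 171 and 97.7 to 54.5 and 50.6 (log2 difference -1.30 ± 0.28 (SE), adjusted p = 0.0444). With Mt1 these made 3 calls among 22 genes of iron and other metals (13.6% beside 2.72% of all genes), whose median was 0.04.

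Of 23 transcription factors of the duodenum and the enterocyte, Pdx1 fell and Ppargc1a rose (8.7% called beside 2.72% of all genes). Pdx1, which marks duodenal identity, gave 440.2 and 444 in DSW1200 and 116 and 159 in SeW (log2 difference -1.70 ± 0.18 (SE), adjusted p = 0.00537), with the other 4 arrays between 285.8 and 394.9, and its call held in all 8 fits that left out 1 array and was lost without the trend of the spread. Ppargc1a, a coactivator of mitochondrial genes, rose from 54.4 and 68.8 to 114 and 145 (log2 difference 1.07 ± 0.21 (SE), adjusted p = 0.0348), and TW at 100.4 and 106 and WR at 81.7 and 96.5 lay between the waters. The 73 tested subunits of oxidative phosphorylation had a median of -0.05, and 2 were lower, at 2.74% the share called over all genes (2.72%). These were Cox5a, of cytochrome oxidase, from 244 and 241 to 106 and 115 (adjusted p = 0.0146), and Atp5f1e, of ATP synthase, from 3480 and 3201 to 2063 and 2078 (adjusted p = 0.0453).

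Ap2b1, the beta subunit of the AP-2 adaptor that links cargo to clathrin at the plasma membrane, had the smallest p of all genes. Its signal was 135 and 141 in DSW1200 and 25.9 and 30.4 in SeW (log2 difference -2.30 ± 0.18 (SE), adjusted p = 0.00153), and the other 4 arrays were between 152.3 and 155.6. It was the 1 gene called among 19 clathrin adaptor and coat subunits (5.26% beside 2.72% of all genes), whose median was 0.01. Prss35, a serine protease-like protein, rose from 10.8 and 3.86 to 68.3 and 87.0 (log2 difference 3.58 ± 0.47 (SE), adjusted p = 0.01), with 1 of the 2 DSW1200 signals again below that limit.

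The other genes among the 15 largest rises were Ap5s1, LOC102554372, Frat2 and Ankrd12, between 2.09 and 2.49 on the log2 scale. Frat2, which stabilizes beta-catenin, went from 73.2 and 103 to 309 and 589 (adjusted p = 0.0143), with WR at 198 and 309. Ap5s1, an adaptor subunit, went from 3.17 and 2.77 to 13.1 and 16.7, and TW at 11.8 and 19.0 lay with SeW. Both DSW1200 signals of Ap5s1 and 1 of the 2 of Ankrd12 were below the limit of 6.69, so the sizes of these rises are poorly known. The others among the 15 largest falls were Fam78a, Hic2, Cmpk2, Taf1c, Ccdc25, Znhit6, Lrrc14 and Riok1, between -1.67 and -1.93. Cmpk2, a mitochondrial nucleotide kinase induced by interferon, went from 221 and 302 to 99.5 and 56.0 (adjusted p = 0.0323). Riok1, a kinase of ribosome maturation, went from 132 and 109.8 to 39.9 and 35.7 (adjusted p = 0.00736).

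Some calls rest on 1 of several probe sets. Of the 252 genes called, 80 had 115 other tested probe sets, of which 82 had the same sign and 18 were called the same way, while 2 were called the opposite way (for Ankh and Tpm3). Over all genes 56.8% of such probe sets had the same sign. When the probe sets of a gene were averaged, 38 of the 58 genes called by name here kept their call, and Ap2b1, Slc23a2, Klf15, Cyp4b1, Bmal1, Clock and Npas2 were among those that lost it. Igf2bp2, an RNA-binding protein, gave 275 and 323 against 112 and 103 (log2 difference -1.47 ± 0.17 (SE), adjusted p = 0.00622), but a second, dimmer probe set gave 10.1 and 8.64 against 10.2 and 11.8. Lmbr1l, a membrane receptor, gave 151 and 106 against 33.4 and 31.9 (adjusted p = 0.00537), and 2 other probe sets gave log2 differences of 0.42 and -0.20. Rpsa, a ribosomal protein with many processed copies in the genome, gave 1928 and 1854 against 1032 and 965 (adjusted p = 0.0122) on a probe set shared by similar sequences, and 0.20 and -0.47 on the others. Rpsa was the 1 gene called among 43 cytosolic ribosomal proteins (2.33% beside 2.72% of all genes).

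Markers of the cell types in the fraction also differed in level between the waters. Enterocyte markers were present on all 4 arrays, as the label of intestinal epithelium calls for, and their summed signal over 25 brush border markers was 59566 and 60548 in DSW1200 and 72530 and 75407 in SeW. Of those 25, 23 had a higher mean in SeW (median 0.30), and Xpnpep2, an aminopeptidase, passed the test (239.6 and 228 against 429 and 476, adjusted p = 0.0361). The share called was 4.0% beside 2.72% of all genes. Mep1b, a meprin subunit, Ezr, which ties microvilli to their core, and Espn, an actin bundler, gave 0.58 ± 0.14, 0.97 ± 0.24 and -0.87 ± 0.21 on the log2 scale without passing it. Relative to all genes this list lay at 0.34, and at 0.31 to 0.48 over the 4 pairings of arrays. On the values as deposited and on arrays centred on their medians it lay at 0.16.

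Markers of T cells and of myeloid cells mostly had lower means in SeW. Over 21 markers of T cells and intraepithelial lymphocytes, 17 had a lower mean (median -0.54) and the summed signal was 783.4 and 873.1 in DSW1200 and 495.4 and 532.7 in SeW, against 631.6 to 900.3 in TW and WR. A further 8 on the array, among them Cd3e, Cd4 and Cd8a, were too dim to be tested. Of the 21, 2 were called (9.52% beside 2.72% of all genes). Gzma and Gzmb, granzymes of cytotoxic cells, fell from 189 and 164 to 67.1 and 78.3 (log2 difference -1.28 ± 0.21 (SE), adjusted p = 0.0204) and from 95.4 and 94.2 to 35.7 and 49.0 (log2 difference -1.18 ± 0.22 (SE), adjusted p = 0.0325). For Gzma the TW arrays at 76.4 and 103.55 overlapped SeW, and the WR arrays at 165.8 and 146.1 lay near DSW1200. For Gzmb the TW and WR arrays all lay above both SeW arrays. Gzmf, a further granzyme, fell from 43.1 and 33.0 to 6.61 and 11.6 (adjusted p = 0.027). Ccl5, a chemokine, and Cd3d, of the T cell receptor complex, had lower means without passing the test (adjusted p = 0.118 and adjusted p = 0.241).

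Of 22 myeloid markers, 21 had a lower mean and none passed limma's test at an adjusted p under 0.05 (median -0.76). Their summed signal was 1458 and 1562 in DSW1200 and 1051 and 1090 in SeW. C1qa, a complement chain made by macrophages, gave 109.5 and 153 against 54.5 and 68.1 (log2 difference -1.09 ± 0.25 (SE), adjusted p = 0.0509), C1qb gave 27.8 and 34.6 against 18.4 and 16.0, Ms4a7 gave 21.6 and 26.9 against 10.2 and 12.9, and Fcer1g gave 94.2 and 102 against 65.6 and 61.8. In all 4 genes the waters did not overlap, as in 53.9% of all genes tested. Other immune lists were mixed. Of 18 antigen presentation genes 11 had a higher mean (median 0.14), as had 9 of 22 interferon response genes (median -0.06). Of 8 B and plasma cell markers 7 had a lower mean (median -0.82). Their summed signal overlapped between the waters (562.6 and 590.4 against 72.5 and 640.9). Of 10 endothelial markers 6 had a lower mean (median -0.45), and they summed to 125.7 and 170.9 against 120.7 and 111.6, without overlap. None of the genes in these 4 lists passed limma's test (at an unadjusted p under 0.05 there were 2 higher and 2 lower, 3 and 3, 1 and 0, and 0 and 0, in that order). Relative to all genes both the T cell and the myeloid list stayed below 0 in all 18 alternatives. In bulk arrays fewer cells of a type and less RNA per cell cannot be told apart, and how far these marker levels bear on the other differences was not tested.

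Cell cycle genes had higher means in SeW in 25 of 29 (median 0.42) and none passed limma's test. Pcna, the replication clamp, gave 263 and 242 against 546 and 427 (log2 difference 0.94 ± 0.21 (SE), adjusted p = 0.0509). Mki67, a proliferation marker, gave 27.8 and 27.8 against 56.2 and 40.2 (adjusted p = 0.159). Nusap1 and Ccna2 gave 1.21 ± 0.39 (adjusted p = 0.128) and 1.81 ± 0.64 (adjusted p = 0.159). For Pcna the TW arrays at 523 and 369.9 and the WR arrays at 429.5 and 547 were also above DSW1200. For Mki67, Nusap1 and Ccna2 both WR arrays were above both DSW1200 arrays, but the TW mean was below the DSW1200 mean.

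**Figure D5:**
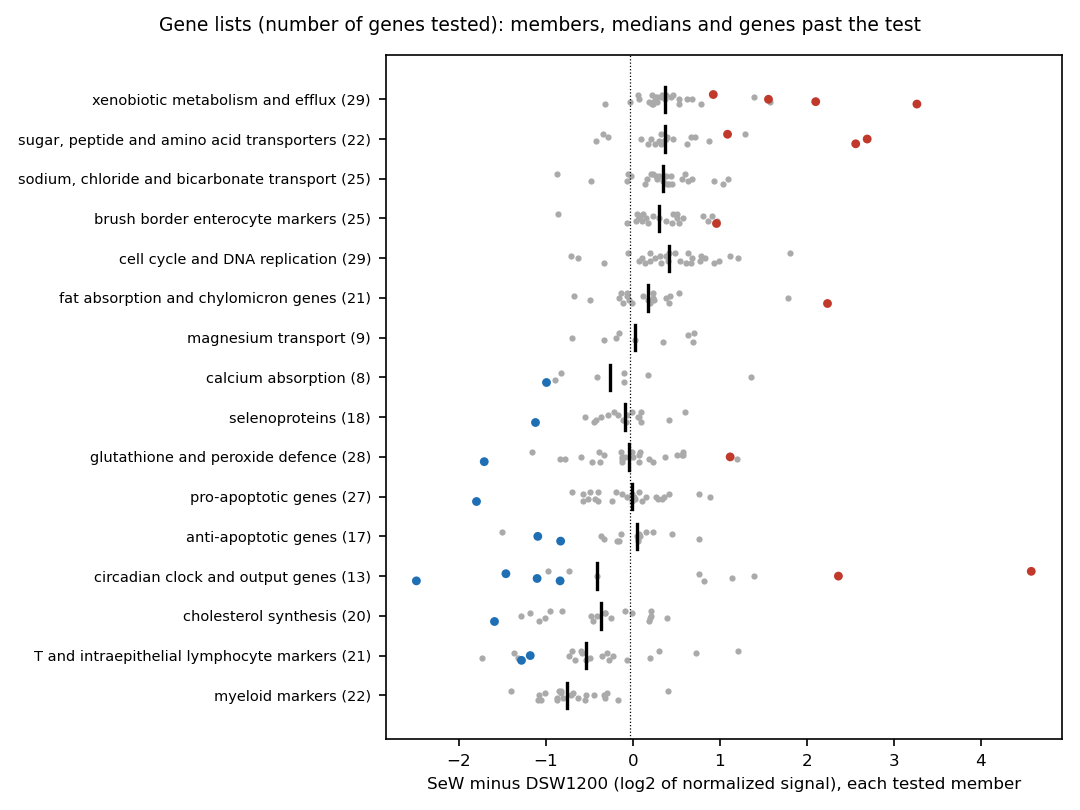
Each point is a tested member of a gene list, placed by its SeW minus DSW1200 difference of log2 normalized signal; red and blue points are members higher or lower at an adjusted p under 0.05, black bars are list medians, the dotted line is the median of all genes, and the number tested is in brackets. Medians lie to the right for xenobiotic metabolism, nutrient and salt transporters, brush border markers, the cell cycle and fat absorption. They lie to the left for calcium absorption, cholesterol synthesis, and T cell and myeloid markers, and the clock genes lie on both sides.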

How the data were processed

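The 8 rat arrays (Affymetrix Rat Genome 230 2.0) were scaled with MAS5 by the authors, and the deposited values are linear signal intensities per probe set, with no scaling target given in the sources used here. Signals were quantile normalized over all 8 arrays, then floored at 1 and put on the log2 scale. Each gene was represented by its brightest probe set over all arrays, and genes were tested where the geometric mean signal passed the 50th percentile. Moderated tests used limma 3.58.1 in R 4.3.3 on all 4 groups (4 residual degrees of freedom), with a trend of the spread with signal and Benjamini-Hochberg adjustment over the 9259 genes; the code was tested on simulated data. The members, gene lists and tests were chosen with earlier results of these data known. Named were the 15 largest rises and falls among calls without overlap, up to 4 members of smallest p in each list described, and genes of interest to the study. The number of arrays limits the precision. Alternatives covered scaling, filter, offset, probe set choice, trend, samples, the replicate block and each array left out. No detection calls were used. Replicate numbers did not pair the arrays.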

Additional observations from a re-analysis of the deposited data

How the results depend on the processing

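The number of genes called depended strongly on the processing, and the cause was not tested. Against 252 it was 3739 on the values as deposited, 77 on arrays centred on their medians, 19 with no filter, 141 on the mean of probe sets, 1 without the intensity trend and 0 when the 3'/5' ratio of beta-actin entered as covariate (436 at an unadjusted p under 0.05 by limma). A 2-fold change with no test gave 574 genes and one without overlap 501. Leaving out 1 array gave 3 to 436. Within 1.5 times of 252 were the fits on the 4 arrays alone (253), on arrays normalized among those 4 (244), with an offset of 32 (302), with the stricter filter (364) and over all probe sets (358). Of the 252, 123 were kept as deposited, 73 when centred, 189 in the fit on 4 arrays and 225 with the stricter filter.

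The replicate numbers did not pair the arrays: deviations of same-numbered arrays correlated at -0.06 to 0.04 between groups. With the replicate number as a block, 116 genes were called, 112 of them among the 252, and 41 of the 58 genes called by name above kept their call.

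As deposited, the share of genes with TW on the DSW1200 side was 97.4% (higher) and 41.9% (lower), and with WR 89.7% and 64.7%. Centred, the WR shares were 89.7% and 72.8%. On the values as deposited the log2 difference turned sign for Mcl1 0.55, Gpx4 0.27, Sod1 0.73, Npas2 0.0703, Txnrd1 0.85, Trpv6 0.0826, Slc41a2 0.21, Gpx1 0.54, Api5 0.0852, Espn 0.0532, Srxn1 0.0725, Fcer1g 0.27, Ccl5 0.21, Bad 0.89 and C1qb 0.0233. On arrays centred on their medians the log2 difference turned sign for Selenop -0.24, Txnrd1 0.12 and Bad 0.16. On the mean of probe sets the log2 difference turned sign for Selenop -0.21 and Mcl1 0.10. With 1 array left out it took both signs for Mcl1 (-0.41 to 0.0841), Sod1 (-0.39 to 0.11), Txnrd1 (-0.21 to 0.0745) and Bad (-0.23 to 0.20). Of these, only Npas2 and Api5 passed the test as reported above.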

Other observations

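Stress, hormone and mucosal lists outside the comparisons above held few calls or none. The shares called were 3.57% of the unfolded protein and heat shock list, 3.7% of the immediate early list and 7.14% of the enteroendocrine list. Over all genes the share was 2.72%. Of 28 genes of the unfolded protein and heat shock responses, Herpud1, which serves the disposal of misfolded proteins from the endoplasmic reticulum, rose from 198.1 and 169.7 in DSW1200 to 336.6 and 604.3 in SeW (log2 difference 1.30 ± 0.25 (SE), adjusted p = 0.0325 by limma). Of 27 immediate early genes, Zfp36, which speeds the decay of inflammatory messages, rose from 82.3 and 112.1 to 225.6 and 294.0 (1.42 ± 0.31, adjusted p = 0.0442), while 12 of the 27 had a higher and 15 a lower mean. Of 14 enteroendocrine markers, Cpe, which trims peptide hormones, fell from 159.8 and 188.7 to 82.0 and 85.2 (-1.05 ± 0.18, adjusted p = 0.0232), and 10 of the 14 had a lower mean (median -0.22). All 3 calls were lost without SeW replicate 2.

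No gene passed limma's test among 22 NRF2 targets (median 0.06), 11 osmotic stress genes (-0.10), 21 genes of fatty acid oxidation (0.21), 10 glucocorticoid-induced genes (0.50), 22 interferon response genes (-0.06), 36 proteasome subunits (-0.02), 9 goblet cell markers (-0.11) and 7 Paneth cell markers (0.63), beside a median of -0.04 over all genes. Of 17 genes of prostaglandin synthesis and mucosal protection, 14 had a lower mean in SeW (median -0.30) and none passed. At the 2.72% called over all genes, lists of this size would hold few calls or none. The absence of calls in them therefore does not show that the waters were alike. The 8 pancreatic acinar genes tested had summed signals of 5597 and 1625 on the DSW1200 arrays and 2404 and 3793 on the SeW arrays, which overlap.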
